A study of Mus musculus with 18 samples.

Results

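Potassium channel genes were examined in the striatum of control and mutant mice given cocaine or saline. The members were the genes with a symbol beginning with Kcn, other than the Kcnip genes, for which at least 1 probe set exceeded a log2 level of 4 in at least 3 of the 18 arrays. Of 58 such genes with a probe set of their own on the array, 26 met this rule, among 7583 genes and 12674 probe sets kept in all. Each gene was represented by the probe set with the highest mean over the 18 arrays, and the 6 other kept probe sets of 5 genes are described beside it.

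The tissue was striatum that included the nucleus accumbens, from littermates of 10 to 20 weeks that were kept singly and handled for 5 days. Control and mutant mice received either saline or 25 mg/kg cocaine by intraperitoneal injection and were killed 1 hour later. The series title names loss of CaMKIV (Camk4), a calcium/calmodulin-dependent protein kinase that phosphorylates transcription factors in the nucleus of neurons; the allele and any Cre driver were not given in the sources used here. There were 3 control saline arrays, 6 control cocaine arrays, 3 mutant saline arrays and 6 mutant cocaine arrays, each titled as a separate biological replicate. Both cocaine groups held 3 animals with Arabic numbers and 3 with Roman numbers, whereas every saline animal had an Arabic number. The groups were taken from the sample titles, since the free-text description lines matched the titles in 0 of 18 arrays.

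Potassium channels set the resting potential of neurons, repolarize the action potential and limit repetitive firing. In the medium spiny neurons of the striatum, inward rectifiers hold the cell near its hyperpolarized resting state, A-type and KCNQ channels delay and restrain firing, and calcium-activated channels shape the afterpotentials. Cocaine blocks dopamine reuptake, and dopamine receptor signalling is known to modulate several of these currents. Immediate early genes are induced in the striatum within the first hour after the drug.

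The targeted gene and Fos, an immediate early gene, were read first as a check of the labels. Camk4 read 7.65 ± 0.06 (SD, n = 3) after saline and 7.65 ± 0.10 (n = 6) after cocaine in control mice, against 7.30 ± 0.16 (n = 3) and 7.27 ± 0.27 (n = 6) in mutant mice, on the deposited log2 scale. The limma difference between mutant and control mice was -0.35 ± 0.15 (SE) after saline and -0.39 ± 0.10 after cocaine, with adjusted p-values of 1.00 and 0.427, so that the lower level in the mutants did not pass over all probe sets. Fos was higher after cocaine by 4.55 ± 0.48 on the log2 scale (adjusted p = 5.53e-04). Of 10 fixed markers of medium spiny neurons 6 were measured, with mean levels of 11.94 to 12.34 per array. Mutant cocaine replicate 5 and control cocaine replicate 4 stood apart from the other arrays, with a mean correlation to the others of 0.966 and 0.976. Some results below are also given with such an array left out. Lower levels in whole striatum cannot be told apart as fewer cells of a type or less RNA per cell.

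The promoter windows of 22 of the 26 genes were matched in RefSeq (GRCm38.p6), each running from 250 bases before to 50 bases after an annotated start. The cAMP response element (CRE), TGACGTCA, the site bound by CREB, a known substrate of CaMKIV, was searched for on both strands together with its short core, TGACG. The full element was found in 0 of 22 genes, against 2.03% of 27025 genes with a window. This core, which is contained in the full element, was found in 6 of 22 genes (Kcnab2, Kcnc1, Kcnc4, Kcnj4, Kcnj8 and Kcnn1), against 23% of all genes. The AP-1 element TGANTCA was found in 1 gene, Kcnk2, against 8.97% of all genes, and the Egr element GCGNGGGCG in 2, Kcna4 and Kcnk2, against 6.27%. The upstream parts of 3 windows are shown because Kcnma1 and Kcnk13 had the smallest p-values for cocaine averaged over genotypes and for the interaction, and because Kcnab2 alone had 2 matches to the core, which are in capitals and read CGTCA, its complement on the other strand. Kcnma1 lies at chr14:24004206-24004455 on the minus strand, Kcnk13 at chr12:99964249-99964498 on the plus strand and Kcnab2 at chr4:152477550-152477799 on the minus strand, each printed 5′ to 3′ on the strand of the gene.
Kcnma1: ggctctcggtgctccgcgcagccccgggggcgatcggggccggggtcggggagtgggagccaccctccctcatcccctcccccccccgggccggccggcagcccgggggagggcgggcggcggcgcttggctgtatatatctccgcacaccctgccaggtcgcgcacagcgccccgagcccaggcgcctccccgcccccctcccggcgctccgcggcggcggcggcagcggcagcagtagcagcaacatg
Kcnk13: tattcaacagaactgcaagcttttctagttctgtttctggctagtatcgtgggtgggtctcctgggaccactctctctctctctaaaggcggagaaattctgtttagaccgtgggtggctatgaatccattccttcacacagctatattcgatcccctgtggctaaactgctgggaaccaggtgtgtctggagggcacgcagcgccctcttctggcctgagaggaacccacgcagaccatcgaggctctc
Kcnab2: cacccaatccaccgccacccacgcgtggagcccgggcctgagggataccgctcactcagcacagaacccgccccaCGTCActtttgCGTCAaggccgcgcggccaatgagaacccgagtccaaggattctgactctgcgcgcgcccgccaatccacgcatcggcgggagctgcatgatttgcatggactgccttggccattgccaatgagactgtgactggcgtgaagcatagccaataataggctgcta
A match is a run of letters in a window and was not measured as a bound site.

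Of the 26 genes, 20 exceeded the log2 level of 4 in all 18 arrays and 6 did so in 6 to 17 arrays. Levels of different probe sets cannot be set against each other, because each probe set hybridizes with its own efficiency, so each gene was compared only with itself across the groups. The largest class was the A-type and delayed rectifier channels, which repolarize the membrane, with 6 of 12 genes on the array: Kcna1, Kcna4, Kcna5, Kcnc1, Kcnc4 and Kcnd2. All 6 were above 4 in every array. Kcnd2, which encodes the Kv4.2 subunit of the somatodendritic A-type current, lay at a log2 level of 11.82 to 11.91 in control saline arrays, had a median of 11.94 (11.69 to 11.99) in control cocaine arrays, lay at 11.68 to 11.90 in mutant saline arrays and had a median of 11.80 (11.67 to 11.99) in mutant cocaine arrays. These 4 ranges overlapped. The other 2 kept probe sets of Kcnd2 had group means of 10.22 to 10.29 and of 10.02 to 10.25.

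**Figure D1:**
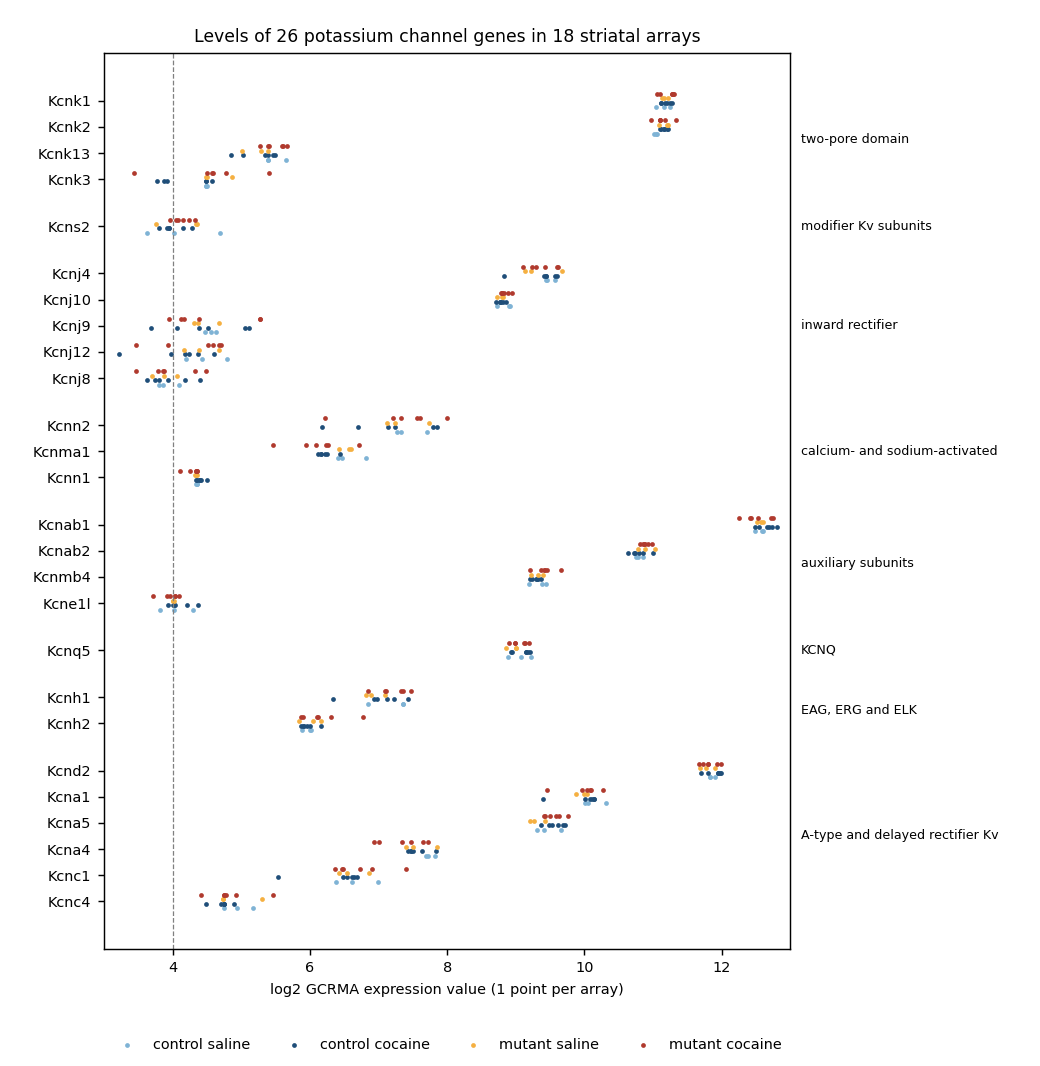
Log2 level (GCRMA) of the 26 potassium channel genes in each of the 18 arrays, by channel class, with 1 point per array coloured by group and a dashed line at the log2 level of 4 that the rule used. The 4 groups overlie each other in nearly every row, and 6 genes have arrays on both sides of the line.

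Among the auxiliary subunits, which bind the pore-forming subunits and alter their gating or surface expression, 4 of 11 genes passed: Kcnab1, Kcnab2, Kcne1l and Kcnmb4. Kcnab1, encoding the Kvβ1 subunit, lay at 12.48 to 12.60 in control saline arrays, had a median of 12.67 (12.48 to 12.80) in control cocaine arrays, lay at 12.51 to 12.60 in mutant saline arrays and had a median of 12.48 (12.25 to 12.74) in mutant cocaine arrays. The 4 ranges overlapped, with the widest in mutant cocaine arrays. Kcne1l was above 4 in 13 arrays.

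The class of calcium- and sodium-activated channels was represented by 3 of 6 genes, all of them calcium-activated. These were Kcnma1, the pore of the large-conductance BK channel, and Kcnn1 and Kcnn2, which encode small-conductance SK channels. None of the 6 was a sodium-activated (Kcnt) gene. Kcnn2 lay at 7.27 to 7.70 in control saline arrays, had a median of 7.19 (6.18 to 7.85) in control cocaine arrays, lay at 7.13 to 7.74 in mutant saline arrays and had a median of 7.45 (6.22 to 7.99) in mutant cocaine arrays. Its SD over 18 arrays was 0.51, and all 4 ranges overlapped.

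The ether-à-go-go family was represented by 2 of 4 genes, Kcnh1 and Kcnh2, the latter encoding the ERG1 channel. Among the inward rectifiers, which pass potassium most readily at hyperpolarized potentials, 5 of 13 genes passed: Kcnj4, Kcnj8, Kcnj9, Kcnj10 and Kcnj12. Kcnj4, encoding the strong rectifier Kir2.3, lay at 9.44 to 9.56 in control saline arrays, had a median of 9.44 (8.83 to 9.60) in control cocaine arrays, lay at 9.13 to 9.67 in mutant saline arrays and had a median of 9.36 (9.10 to 9.62) in mutant cocaine arrays. The ranges overlapped, with 1 control cocaine array far below the rest. Kcnj10, encoding the glial Kir4.1 channel, had an SD of 0.067 around a mean of 8.81 over 18 arrays. Only 2 of the 5 inward rectifiers were above 4 in every array, and Kcnj9, Kcnj12 and Kcnj8 were above it in 16, 14 and 6 arrays.

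Kcnq5, an M-current subunit and 1 of 2 KCNQ genes on the array, lay at 8.89 to 9.22 in control saline arrays, had a median of 9.15 (8.92 to 9.21) in control cocaine arrays, lay at 8.85 to 9.01 in mutant saline arrays and had a median of 9.06 (8.90 to 9.19) in mutant cocaine arrays. Of the electrically silent modifier subunits 1 of 2 passed, Kcns2, which was above 4 in 11 arrays, with group means of 4.01 to 4.15. The two-pore domain channels, which carry background potassium currents, were represented by 4 of 8 genes: Kcnk1, Kcnk2, Kcnk3 and Kcnk13. Kcnk1, encoding TWIK-1, lay at 11.05 to 11.25 in control saline arrays, had a median of 11.19 (11.11 to 11.28) in control cocaine arrays, lay at 11.13 to 11.21 in mutant saline arrays and had a median of 11.28 (11.06 to 11.30) in mutant cocaine arrays. The 4 ranges of Kcnq5 overlapped, as did those of Kcnk1.

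Of the 32 Kcn genes that did not pass, 31 exceeded a level of 4 in 0 arrays and 1, Kcnab3, in 1 array. They included Kcnj2, Kcnj3, Kcnj6 and Kcnd3, which encode well-known neuronal subunits. At these levels a probe set near background cannot show whether the gene was expressed. With no filter on level, 0 of the 48 Kcn probe sets below it were called by limma in any of the 6 contrasts.

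The first comparison asked which channel genes differed 1 hour after cocaine, averaged over both genotypes. No potassium channel gene was called: 0 of 26 passed an adjusted p under 0.05 in the limma fit, where 0.221% of the 12674 probe sets were called. At an unadjusted p under 0.05 there were 4 of 26, where 5.09% of probe sets passed, and an ordinary linear model called 0. The fitted differences ranged from -0.39 to 0.28 on the log2 scale with a median of 0.01, equal to the median of all genes, and 15 of 26 lay above 0, against 53.7% of all genes. For 20 of the 26 genes the 95% confidence interval of the difference lay within 0.5 log2 units of 0 (1.41-fold), against 89.8% of all genes. For all 26 it lay within 1 log2 unit, against 98.8%. Because only Arabic-numbered animals received saline and the fit has a term for the numbering series, this contrast rests on the Arabic-numbered arrays.

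**Figure D2:**
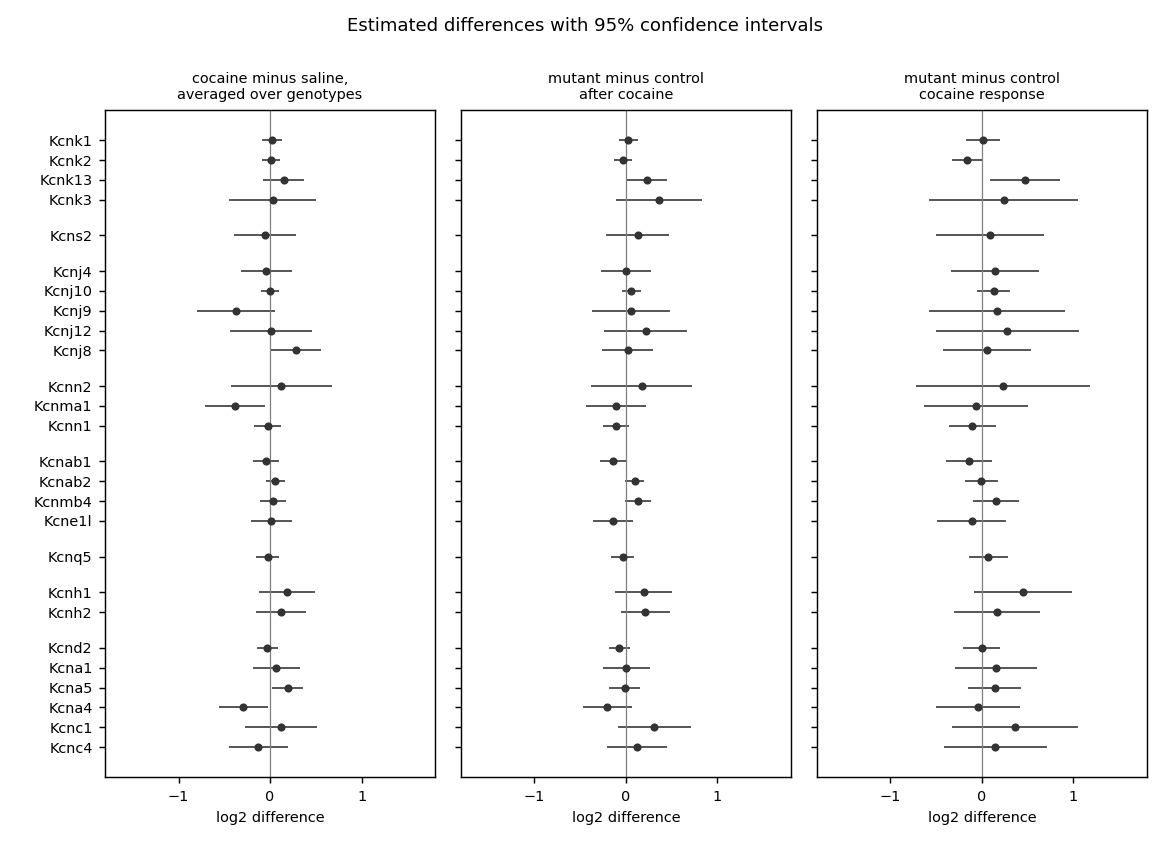
Fitted log2 differences of the 26 genes with 95% confidence intervals, for cocaine against saline averaged over genotypes, mutant against control mice after cocaine, and the genotype by cocaine interaction. None of the 26 passed an adjusted p under 0.05 in these contrasts, and intervals were widest for the interaction.

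Kcnma1 had the smallest p of the 26. Its levels were 6.82, 6.41 and 6.46 in control saline arrays and 6.59, 6.57 and 6.42 in mutant saline arrays. The Arabic-numbered cocaine arrays read 6.11, 6.16 and 6.25 in control mice and 6.26, 5.95 and 6.23 in mutant mice, and the Roman-numbered ones 6.16, 6.44 and 6.23 in control mice and 6.09, 5.46 and 6.72 in mutant mice. Among Arabic-numbered animals the lowest saline array, 6.41, lay above the highest cocaine array, 6.26, so the groups did not overlap. Among Roman-numbered animals 1 control and 1 mutant array lay within the saline range.

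The fitted Kcnma1 difference was -0.39 ± 0.15 (95% interval -0.71 to -0.06, adjusted p = 0.859). It was called when the Arabic-numbered arrays were fitted alone, at -0.39 ± 0.09 with an adjusted p of 0.0372, a fit in which 3.39% of probe sets were called. Without mutant cocaine replicate 5 the adjusted p was 0.068, where 2.86% of probe sets were called. Among the brightest probe sets, Kcnma1 was the only 1 of 26 whose 6 saline and 6 Arabic-numbered cocaine arrays did not overlap, and of the 6 others that of Kcnk1 was also lower without overlap, where 1.62% of probe sets were lower after cocaine in this way and 2.25% were separated in either direction. The other kept Kcnma1 probe set differed by 0.04 ± 0.33. With the actin 3′ minus 5′ difference of each array, a measure of RNA integrity and labelling, as a covariate, the Kcnma1 difference was -0.30 with an adjusted p of 0.552. That measure was 2.20 ± 0.19 (SD, n = 6) in saline arrays and 2.38 ± 0.17 (n = 6) in Arabic-numbered cocaine arrays, and its part in the Kcnma1 difference was not tested further.

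Kcna4, encoding the rapidly inactivating Kv1.4 subunit, read 7.72, 7.69 and 7.82 in control saline arrays and 7.39, 7.85 and 7.50 in mutant saline arrays. After cocaine it had a median of 7.49 (7.44 to 7.83) in control mice and 7.41 (6.94 to 7.72) in mutant mice. The ranges overlapped, and the difference was -0.29 ± 0.13 (95% interval -0.56 to -0.03, adjusted p = 0.859). Kcna5, encoding the delayed rectifier Kv1.5, read 9.41, 9.31 and 9.65 in control saline arrays and 9.43, 9.26 and 9.21 in mutant saline arrays. After cocaine it had a median of 9.57 (9.36 to 9.71) in control mice and 9.54 (9.41 to 9.75) in mutant mice. The control groups overlapped widely, and the averaged difference was 0.19 ± 0.08 (95% interval 0.02 to 0.36, adjusted p = 0.859). The 6 genes with the CRE core in their window differed by -0.13 (Kcnc4) to 0.28 (Kcnj8), and none of them passed. Kcnj8 lay at the level of the filter, above 4 in 6 of 18 arrays. It read 3.81 to 4.48 in Arabic-numbered cocaine arrays and 3.70 to 4.09 in saline arrays, and the former were most of those that met the rule.

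By class, the median difference after cocaine was 0.02 for the 6 A-type and delayed rectifier genes and 0.02 for the 4 auxiliary subunits. It was -0.03 for the 3 calcium-activated channels and 0.15 for the 2 ether-à-go-go genes. For the 5 inward rectifiers it was 0.00 and for the 4 two-pore genes 0.02. The Kcnq5 difference was -0.03 ± 0.06 and that of Kcns2 -0.06 ± 0.16.

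Within control mice alone, 0 of 26 genes passed (0.11% of probe sets called), 0 at an unadjusted p under 0.05 (2.6%), and the median difference was -0.04 with 10 of 26 above 0. The 3 smallest p-values belonged to Kcnma1 (-0.35 ± 0.20), Kcnj9 (-0.45 ± 0.27) and Kcna4 (-0.27 ± 0.17), each with an adjusted p of 1.00. Within mutant mice 0 of 26 passed (0.0473% called), 2 at an unadjusted p under 0.05 (6.95%), and the median was 0.04 with 16 of 26 above 0. There the smallest p-values belonged to Kcnk13 (0.39 ± 0.14), Kcna5 (0.26 ± 0.10) and Kcnh1 (0.41 ± 0.19), each with an adjusted p of 0.66. For Kcnk13 in mutant mice the difference was 0.36 (adjusted p = 0.254) without mutant cocaine replicate 5. The ordinary linear model called 0 in either genotype. These contrasts and the averaged one share their arrays.

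The second question was whether channel genes differed between mutant and control mice. After saline, 0 of 26 genes passed, where 0% of probe sets were called by limma and 0 members had an unadjusted p under 0.05 (2.76% of probe sets). The median difference was -0.05 with a range of -0.25 to 0.13, and 7 of 26 lay above 0. Over all genes the median was 0.03 and 61% lay above 0. When each array was centred on its median, 12 of 26 lay above 0. That centring raised the median of all probe sets from 0.01 to 0.05. The 6 A-type and delayed rectifier genes lay below 0 with a median of -0.11, or 5 of 6 with that centring, which put Kcnc4 above 0. The 5 inward rectifiers lay below 0 with a median of -0.07, or 4 of 5 with that centring, which put Kcnj8 above 0. None of them passed the threshold. Kcnk2, the TREK-1 background channel, read 11.02, 11.06 and 11.05 in control and 11.21, 11.21 and 11.09 in mutant saline arrays. Those ranges did not overlap, for Kcnk2 alone of the 26 genes, where 11.7% of probe sets did not overlap between these 3 and 3 arrays. The difference was 0.13 ± 0.07 (adjusted p = 1.00). Kcnab2, the Kvβ2 subunit, read 10.86, 10.75 and 10.78 in control and 11.02, 10.78 and 10.89 in mutant saline arrays, which overlapped, with a difference of 0.10 ± 0.07 (adjusted p = 1.00).

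After cocaine, 0 of 26 genes passed between mutant and control mice, where 0% of probe sets were called, and 1 had an unadjusted p under 0.05, where 11.6% of probe sets did. The median difference was 0.04, against 0.03 for all genes, with a range of -0.20 to 0.36. Above 0 lay 17 of 26, against 58.5% of all genes. With median centring 20 of 26 lay above 0, and the median of all probe sets rose from 0.01 to 0.05. For 21 of 26 genes the 95% interval lay within 0.5 log2 units of 0, against 87.7% of all genes. The 6 mutant and 6 control cocaine arrays overlapped for every one of the 26 genes, where 0.181% of probe sets did not. Kcnk13 differed by 0.23 ± 0.11 (adjusted p = 0.427), Kcnab1 by -0.14 ± 0.07 (adjusted p = 0.434) and Kcnmb4, the neuronal BK β4 subunit, by 0.13 ± 0.07 (adjusted p = 0.438). Without mutant cocaine replicate 5 these differences were 0.17, -0.06 and 0.08, and without control cocaine replicate 4 that of Kcnk13 was 0.16. Kcnmb4 had a median of 9.31 (9.20 to 9.36) in control and 9.42 (9.21 to 9.66) in mutant cocaine arrays, which overlapped.

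The third question was whether the cocaine difference itself depended on genotype. The interaction passed for 0 of 26 genes, where 0% of probe sets were called, and 1 gene had an unadjusted p under 0.05, where 2.68% of probe sets did. The median interaction was 0.14, against -0.01 for all genes, with a range of -0.16 to 0.47 and 18 of 26 above 0, against 48.1% of all genes. The median was 0.07 without control cocaine replicate 4, with 20 of 26 above 0, and 0.09 without mutant cocaine replicate 5, with 21 of 26 above 0. All 5 inward rectifiers lay above 0, with a median of 0.15. The median was 0.31 for the ether-à-go-go genes (2 of 2 above 0), 0.14 for the A-type and delayed rectifier genes (4 of 6) and 0.12 for the two-pore genes (3 of 4). It was -0.06 for the auxiliary subunits (1 of 4 above 0) and -0.07 for the calcium-activated channels (1 of 3). The interaction contains the mutant minus control difference after saline, where all 5 inward rectifiers lay below 0. The same saline arrays therefore enter both results. Only 12 of 26 intervals lay within 0.5 log2 units of 0, against 62.9% of all genes, and 22 within 1 log2 unit, against 94.7%. The intervals of the other genes reached past 0.5 log2 units, so an interaction of that size was not settled for them.

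Kcnk13, the two-pore channel THIK-1, which is known from microglia, had the smallest p. It read 5.65, 5.39 and 5.39 in control saline arrays and 5.39, 5.29 and 5.00 in mutant saline arrays. Control cocaine arrays read 5.39, 5.49 and 5.47 in Arabic-numbered and 4.86, 5.34 and 5.03 in Roman-numbered animals, and mutant cocaine arrays 5.60, 5.40 and 5.67 and then 5.27, 5.61 and 5.39. The 2 lowest control cocaine arrays were Roman-numbered, while the mutant saline and cocaine arrays overlapped. The interaction was 0.47 ± 0.18 (95% interval 0.09 to 0.86, adjusted p = 0.992), and 0.41 (adjusted p = 0.999) without control cocaine replicate 4, the lowest of the group. For 6 microglial markers the median interaction was 0.08 (-0.05 to 0.39), with 4 of 6 above 0. Their median mutant minus control difference was -0.06 after saline (1 of 6 above 0) and -0.002 after cocaine (3 of 6). Their median cocaine difference was 0.13 in mutant mice (5 of 6 above 0) and 0.04 in control mice (5 of 6). The mean level of these markers per array was 9.59 to 9.84 (control saline), 9.65 to 9.77 (control cocaine), 9.50 to 9.78 (mutant saline) and 9.65 to 9.78 (mutant cocaine). The part of microglial RNA in the Kcnk13 values was not tested.

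Kcnh1, an ether-à-go-go channel, read 7.36, 7.36 and 6.84 in control saline arrays and 6.89, 6.82 and 7.09 in mutant saline arrays. After cocaine it had a median of 7.05 (6.33 to 7.43) in control mice and 7.22 (6.85 to 7.47) in mutant mice, so all 4 ranges overlapped. Its interaction was 0.45 ± 0.25, and 0.33 without control cocaine replicate 4. That of Kcnk2 was -0.16 ± 0.08, with medians after cocaine of 11.16 (11.11 to 11.21) in control and 11.10 (10.98 to 11.33) in mutant mice. Both had an adjusted p of 0.992. The Kcnk2 saline arrays of control mice, given above, all lay below the 6 control cocaine arrays, where 2.28% of probe sets did not overlap in either direction. The fitted difference in control mice was 0.09 ± 0.06 (adjusted p = 1.00).

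**Figure D3:**
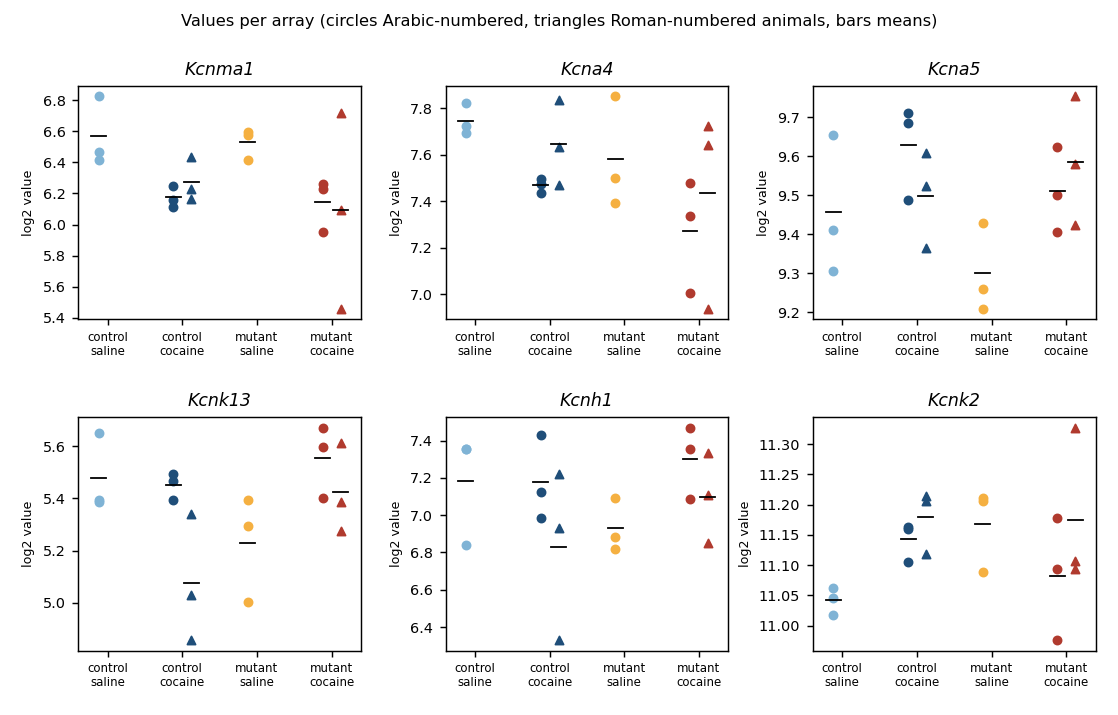
Log2 level of Kcnma1, Kcna4, Kcna5, Kcnk13, Kcnh1 and Kcnk2 in each array, by group, with circles for Arabic-numbered animals, triangles for Roman-numbered animals and bars for the mean of each numbering series in a group. Kcnma1 circles are lower after cocaine in both genotypes, from 6.41 or more in saline arrays to 6.26 or less, and saline and cocaine arrays of the other 5 genes overlap in each genotype except for Kcnk2 in control mice.

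Proteins that associate with potassium channels were read from a list of 24 genes, of which 14 were measured. In each of the 6 contrasts 0 of 14 passed. After cocaine the median difference was 0.00, with 7 above and 7 below 0. Kcnip2, a calcium-binding partner of Kv4 channels, differed by -0.45 ± 0.28 and Cntnap2, the Caspr2 protein that clusters Kv1 channels, by -0.13 ± 0.06, both with an adjusted p of 0.859. In the interaction 3 of 14 lay above 0, with a median of -0.07.

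The Roman-numbered and Arabic-numbered animals differed in 6.16% of probe sets, a larger share than was called in the 6 contrasts, and 1 of 26 channel genes passed. At an unadjusted p under 0.05 there were 9 of 26, where 24.4% of probe sets passed. Kcnj9, the Kir3.3 subunit of G-protein-gated inward rectifiers, was higher in Roman-numbered animals by 0.73 ± 0.20 (95% interval 0.30 to 1.16, adjusted p = 0.0436). It read 4.38, 3.69 and 4.06 in Arabic-numbered and 5.11, 5.06 and 4.51 in Roman-numbered control cocaine arrays, and 4.16, 4.38 and 4.12 against 5.27, 3.95 and 5.27 in mutant ones. The Roman-numbered arrays were the higher ones except for mutant cocaine replicate 5. The call was held in 3 of 18 fits that left out a single array (mutant cocaine replicate 5, control cocaine replicate 1 or 6), and the adjusted p was 0.0534 to 0.114 in the other 15. Without mutant cocaine replicate 5 the difference was 0.94 (adjusted p = 8.68e-05), and 10 of 26 genes passed, where 29.8% of probe sets were called. Of these, Kcna4, Kcnab1, Kcnd2, Kcnj9 and Kcnq5 were higher and Kcnab2, Kcnh2, Kcnj8, Kcnk13 and Kcnk3 lower in Roman-numbered animals. Kcnj8 exceeded a log2 level of 4 in Arabic-numbered arrays only, and its Roman-numbered arrays read 3.47 to 3.93. The rule thus kept Kcnj8 through the series where it was higher, and its direction here is not independent of the rule. With all arrays, the 6 Roman-numbered and 6 Arabic-numbered cocaine arrays overlapped for each of the 26 genes, where 1.84% of probe sets did not.

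The actin 3′ minus 5′ difference moved with the numbering, at 2.38 ± 0.17 (n = 6) in Arabic-numbered cocaine arrays, 1.70 ± 0.13 (n = 5) in Roman-numbered ones other than mutant cocaine replicate 5, and 3.59 in that array. Several second probe sets moved with it while the brightest probe set of the same gene moved less. The other Kcnab2 probe set read 4.67 ± 0.30 among Arabic-numbered cocaine animals, 6.43 ± 0.18 in the 5 Roman-numbered ones and 4.20 in mutant cocaine replicate 5, whereas the brightest read 10.90, 10.75 and 10.88. Its difference between series was 1.39 (adjusted p = 0.0155), against -0.13 (adjusted p = 0.131) for the brightest. The other Kcnab1 probe set read 9.75 ± 0.19, 11.03 ± 0.15 and 8.41 in these same arrays, and its brightest 12.51, 12.73 and 12.25. For Kcnk1 the other probe set read 8.75 ± 0.08, 9.11 ± 0.14 and 7.72 and the brightest 11.18, 11.21 and 11.28.

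With the actin difference as a covariate, the difference between series was 1.01 for the other Kcnab2 probe set (adjusted p = 0.00166), 0.41 for that of Kcnab1 (adjusted p = 0.0688) and 0.51 for Kcnj9 (adjusted p = 0.036). Of the 6 second probe sets, 2 had the same sign as the brightest one after cocaine averaged over genotypes, 2 between genotypes after cocaine and 4 between series. None of the 6 was called in the cocaine, genotype or interaction contrasts.

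**Figure D4:**
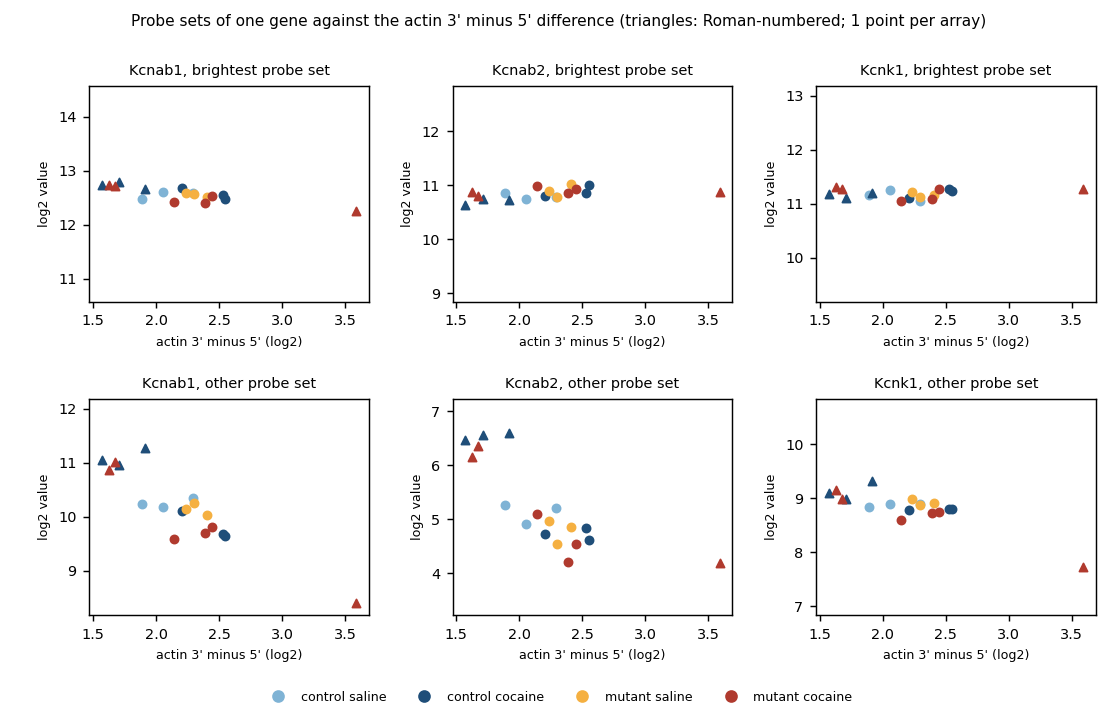
Log2 level of the brightest and the other kept probe set of Kcnab1, Kcnab2 and Kcnk1 in each array, against the actin 3′ minus 5′ difference of that array. The other probe sets fall as the actin difference grows, down to 8.41, 4.20 and 7.72 in mutant cocaine replicate 5 at 3.59, while the brightest ones vary less.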

How the data were processed

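The deposited values are log2 expression levels of mouse Affymetrix probe sets, which the authors produced with GCRMA in R 2.4.1, per the submitters' processing notes. They lie between 1.07 and 15.4, with array medians of 4.98 to 5.19; aligned reads and depth do not apply, and the number of arrays limits the precision. No scanner files were used.

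Of 22690 probe sets, 64 controls and those not above a log2 level of 4 in at least 3 arrays were left out, which kept 12674: 11749 with 1 gene symbol, 406 with several and 519 with none. Symbols came from the platform annotation. limma 3.58.1 in R 4.3.3 fitted the 4 groups and the numbering series over all 18 arrays, with an intensity trend, 13 residual and 3.13 prior degrees of freedom. Tests were two-sided, with Benjamini-Hochberg adjustment over all kept probe sets and a threshold of 0.05. Differences are given with their SE and 95% interval. P-values set each difference against the residual spread between arrays of separate animals, moderated over probe sets. That spread also holds any differences in RNA quality between the arrays. The procedure was tested on simulated data.

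Values are printed in full for the 3 genes of smallest p in each contrast where fewer passed, the member with the highest mean in each class, genes with an outlying array and genes with several probe sets. The members, lists and alternatives were chosen with earlier results of these data known. Alternatives covered the filter, scaling, moderation, array weights, the actin covariate, probe sets per gene, animal numbers and each array left out. Arrays with the same replicate number showed no steady pairing across groups: of 21 pairs 6 correlated above 0.1 (range -0.393 to 0.342). Replicate numbers do not follow the animal numbers. Arabic numbers 1 to 4, 5 to 8 and 9 to 12 each held 1 animal of every group. Roman numbers 1 and 2, 3 and 4, and 5 and 6 each held 1 of each genotype. The pairs above 0.1 all lay within such runs, as did the lowest. The main fit had no term for these runs, which were a block in 1 alternative.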

Additional observations from a re-analysis of the deposited data

Results flagged for a closer look

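Of 52 groups of 6 cocaine arrays examined, 1 per gene and genotype, 3 held an array far from the other 5, all of them control cocaine replicate 4. Chance alone would put about 5% of such groups on this list. Kcna1, encoding Kv1.1, read 9.39 there, with the nearest array of the group at 10.0. Kcnc1, the Kv3.1 subunit of fast-firing neurons, read 5.53, with the nearest at 6.48. Kcnj4 read 8.83, with the nearest at 9.40. This array was the lowest of all 18 for 7 of the 26 genes and the highest for 1, so that it was an extreme for 30.8% of them, against 25.4% of all kept probe sets. Its mean over the 26 was 7.26, against 7.385 in mutant cocaine replicate 5 and 7.42 to 7.60 in the other 16 arrays. Its mean over the 2 measured markers of cortical glutamatergic neurons was 7.30, against 7.45 to 8.71 elsewhere, and the part of that in the channel values was not tested.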

How the results depend on the processing

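The counts of 0 called channel genes held in the 6 contrasts under every alternative run, apart from the averaged cocaine contrast with the Arabic-numbered arrays alone, which called 1 gene, Kcnma1. Leaving out single arrays left 0 called in each of these contrasts. The count of genes differing between the numbering series, 1, was 0 with no filter and in an ordinary linear model. It was also 0 with a log2 level of 6 as the filter, which left out Kcnj9. The highest Kcnj9 array read 5.27, so its call could not be kept there. The count was 2 without the intensity trend, with median centring, with quantile normalization and with the mean of all probe sets. Without the trend and with either scaling the added gene was Kcnj8, which the rule kept through Arabic-numbered arrays alone. At an adjusted p under 0.1 the count was 3. It was 5 with array weights, with the actin covariate and without both arrays that stood apart, the last chosen after seeing the data. Over single arrays left out it ranged from 0 to 10, the 10 without mutant cocaine replicate 5; it was 2 without control cocaine replicate 1. The mutant minus control difference of Kcnab2 after saline turned to -0.12 with the mean of its probe sets. Of 613 values recomputed for single genes, 594 kept their direction and side of the threshold, 17, all of Kcnj9 between series, no longer passed and 1 newly passed. With the replicate number as a block, 0 genes were called in the 6 contrasts, and the Kcnma1 difference was -0.39 (adjusted p = 0.693). Of 18 arrays, 4 lay closest to an array of their own replicate number.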
